A study of Homo sapiens with 9 samples.

Results

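GYPB, RHAG, KEL, SLC4A1, ANK1, SPTB, EPOR and CA1 are 8 genes of the red cell: 3 surface glycoproteins, 3 parts of the anchor between membrane and skeleton, the receptor for erythropoietin, and a cytosolic enzyme. They were taken by symbol from a table of 63241 human Ensembl genes, in which each symbol matched 1 gene ID. All 8 had enough counts to be among the 14592 genes tested. The cells were MEG-01, a megakaryoblast line that grew from the marrow of a patient with chronic myeloid leukaemia in blast phase. Poly(A) RNA was sequenced from 3 libraries of cells given As2S2 (arsenic disulfide), 3 of cells given PMA (phorbol 12-myristate 13-acetate, a drug that switches on protein kinase C) and 3 of untreated control cells. All libraries thus come from 1 line in culture, and the labels state neither a dose nor a duration. The series title asks about SRC, MEK and ERK signalling in megakaryocyte formation, and PMA is a standard inducer of that fate in this line. Whether replicates were separate cultures is not stated, and the p-values cover only how far these samples spread, which could be a purely technical spread.

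Megakaryocytes and red cells descend from a shared progenitor, and megakaryoblast lines commonly express genes of both. In red cells a spectrin mesh lies under the membrane and is fastened to it by ankyrin, which binds the anion exchanger band 3. Glycophorins, the Rh proteins and Kell sit in the same membrane and carry blood group antigens. Erythropoietin binds its receptor and acts through the kinase JAK2 and the factor STAT5 to keep erythroid progenitors alive and dividing.

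Total counts per library lay between 18.2 and 20.37 in units of 1e6. Within their groups, As2S2 replicate 1 and control replicate 2 were the libraries least like the others. Their chi-square per gene against the other libraries of the group was 11.5 to 14.4, against 2.38 to 3.37 for the other pairs. Results are therefore also given without both, an alternative chosen after seeing the data. The megakaryocyte integrin ITGA2B averaged 138 ± 13.8 TPM (an abundance scaled by length, with the same total in every library) in As2S2 libraries, 68.3 ± 4.77 TPM in PMA libraries and 190 ± 7.08 TPM in control libraries. Its partner chain ITGB3 averaged 19.4 ± 0.597, 51.5 ± 2.32 and 11.7 ± 0.727 TPM in the same order. Of 13 tested megakaryocyte markers 11 rose and 1 fell with PMA, beside 30.8% and 31.1% of all tested genes. ITGA2B thus went against most of them with PMA. PF4 had 2.64 counts and GP5 had 1 count over all 9 libraries. The fetal globin HBG2 averaged 10105 ± 396 TPM in As2S2 libraries, 35013 ± 438 TPM in PMA libraries and 7723 ± 192 TPM in control libraries, so genes of both lineages were expressed. Counts from the mitochondrial genome were 7.19% to 8.11% of the total in As2S2 libraries, 9.99% to 10.2% in PMA libraries and 7.90% to 8.20% in control libraries; the part of this share in the results was not tested. In such bulk RNA, fewer cells expressing a gene and less of its RNA per cell cannot be told apart. Errors after levels are SDs over 3 libraries, and errors after log2 fold changes are SEs of the edgeR fit.

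The promoters of 4 of the genes are shown because GYPB, SPTB and KEL fell with As2S2 whereas RHAG rose with PMA. KEL also fell with PMA, unlike GYPB and SPTB. ANK1 and CA1 fell with As2S2 as well, but no promoter of theirs was available. The sequences run 5′ to 3′ from 250 bases before to 50 bases after the first listed start and come from RefSeq on GRCh38.p14, whose promoter table held 5 of the 8 genes. All 4 lie on the minus strand, at chr4:144019331-144019630 for GYPB, chr14:64879858-64880157 for SPTB, chr7:142962314-142962613 for KEL and chr6:49636790-49637089 for RHAG. Capitals mark a match on either strand to the GATA words AGATAA, its variant TGATAA, the word AGATAG and the word TGATAG, to which GATA1 can bind, or to CCNCNCCC, a CACCC-type word of the kind that KLF1 can bind.
GYPB: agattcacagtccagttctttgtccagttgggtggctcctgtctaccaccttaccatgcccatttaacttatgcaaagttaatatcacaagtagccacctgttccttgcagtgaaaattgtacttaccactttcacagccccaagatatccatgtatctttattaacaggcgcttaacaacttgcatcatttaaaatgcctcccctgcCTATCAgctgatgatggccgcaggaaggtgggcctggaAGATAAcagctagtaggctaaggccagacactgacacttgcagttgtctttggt
SPTB: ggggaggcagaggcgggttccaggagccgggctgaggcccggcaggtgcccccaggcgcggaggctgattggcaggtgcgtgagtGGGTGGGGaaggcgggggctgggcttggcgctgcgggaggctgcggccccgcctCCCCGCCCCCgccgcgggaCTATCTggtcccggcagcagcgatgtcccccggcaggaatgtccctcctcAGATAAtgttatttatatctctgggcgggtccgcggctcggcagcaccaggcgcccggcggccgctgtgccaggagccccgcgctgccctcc
KEL: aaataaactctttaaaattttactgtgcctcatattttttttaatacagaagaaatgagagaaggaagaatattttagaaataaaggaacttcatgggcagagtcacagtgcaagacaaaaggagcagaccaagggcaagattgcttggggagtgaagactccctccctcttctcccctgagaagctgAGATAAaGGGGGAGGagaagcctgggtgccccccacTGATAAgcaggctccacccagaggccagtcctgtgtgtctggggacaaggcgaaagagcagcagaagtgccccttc
RHAG: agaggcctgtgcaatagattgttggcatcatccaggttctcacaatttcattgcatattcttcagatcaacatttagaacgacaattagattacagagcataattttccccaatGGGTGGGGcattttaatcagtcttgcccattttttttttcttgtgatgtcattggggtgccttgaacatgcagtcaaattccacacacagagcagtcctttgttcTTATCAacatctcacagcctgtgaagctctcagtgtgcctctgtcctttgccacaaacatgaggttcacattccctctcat

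GATA words stood at 2 places in the GYPB promoter, 2 in SPTB, 2 in KEL and 1 in RHAG. The EPOR promoter also held 1. The second listed start of SPTB held 0, and that of GYPB overlaps the first. Of 35116 promoters of the same length, 24.97% held such a word. CACCC-type words matched at 0 places in GYPB, 3 in SPTB, 2 of which overlap, 1 in KEL and 1 in RHAG, and 56.2% of all promoters held one. The AP-1 word TGANTCA matched none of them and was in 7.71% of all promoters. These are matches of letters and say nothing of binding in these cells. The mRNA of GATA1 did not pass the test with As2S2 (log2 fold change -0.04 ± 0.10, edgeR adjusted p = 0.803) or with PMA (-0.01 ± 0.10, adjusted p = 0.928). KLF1 mRNA fell by 1.16 ± 0.14 with PMA (adjusted p = 3.07e-06) and had a log2 fold change of -0.02 ± 0.14 with As2S2 (adjusted p = 0.912). Both were named after their values were seen, because of the words searched.

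On the deposited TPM scale, which allows levels of different genes to be set side by side, the 8 genes spanned a wide range. RHAG led in every group, with 94.0 ± 17.1 TPM in As2S2 libraries, 127 ± 5.41 TPM in PMA libraries and 95.7 ± 5.91 TPM in control libraries. In control cells it ranked in the top 5.97% of tested genes, CA1 in the top 7.85%, GYPB in the top 10.3% and ANK1 in the top 16.8%. The place of GYPB above ANK1 rests on its short effective length, given below, by which TPM divides. Summed control counts were 937 for GYPB and 9130 for ANK1. EPOR, SLC4A1, KEL and SPTB were low, between 2.06 ± 0.275 TPM for SPTB and 3.55 ± 0.251 TPM for EPOR in control cells. The order in As2S2 libraries matched that in control libraries: RHAG, CA1, GYPB, ANK1, EPOR, SLC4A1, KEL and SPTB. In PMA libraries the order was RHAG, GYPB, CA1, ANK1, EPOR, SPTB, KEL and SLC4A1. In each group the libraries of neighbours in the order did not overlap, except for the lowest pair, which was KEL and SPTB in As2S2 and control libraries and KEL and SLC4A1 in PMA libraries. RHAG made up 49.8% ± 3.40 of the summed TPM of the 8 genes in As2S2 libraries, 62.1% ± 2.09 in PMA libraries and 36.6% ± 0.792 in control libraries.

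**Figure D1:**
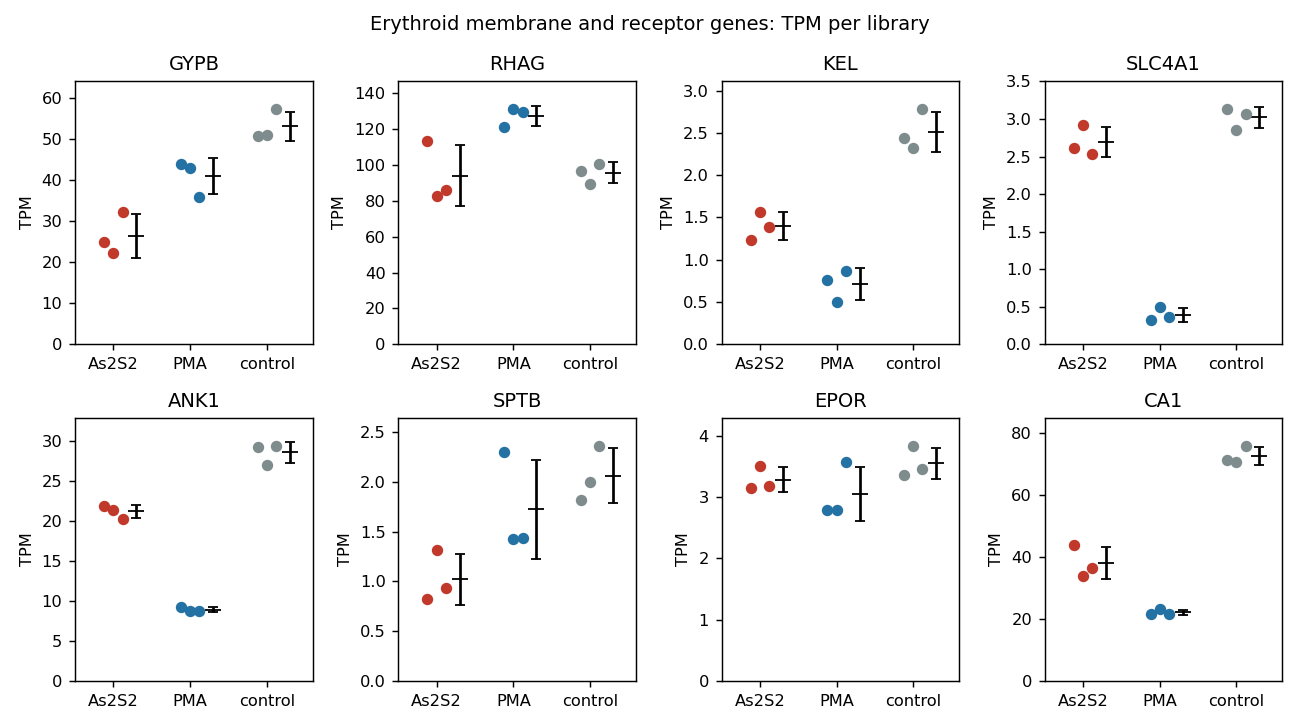
Deposited TPM of each of the 8 genes in every library, with As2S2 left, PMA in the middle and control right; points are libraries and bars the mean with SD over 3 libraries, and each panel has its own linear axis from 0. RHAG is highest in the 3 PMA libraries, and SLC4A1 is lowest in them at 0.32 to 0.5 TPM. On this scale GYPB, CA1, KEL and ANK1 are highest in control libraries.

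As2S2 lowered the RNA of 5 of the 8 genes and raised none at an adjusted p under 0.05, beside 19.6% of all tested genes that fell, 20.3% that rose and 39.9% that did either. In CPM, the As2S2 libraries lay below all control libraries for the same 5 genes, beside 22.7% of all tested genes, and above them for none, beside 23.1%. GYPB, CA1, KEL and SPTB fell to between 0.523 and 0.598 of the control level, and ANK1 fell to 0.817 of it. SLC4A1, EPOR and RHAG did not pass the test. The median log2 fold change was -0.52 over the 8 genes and -6.77e-05 over all tested genes. Without control replicate 2 and As2S2 replicate 1 the counts were again 5 lower and 0 higher.

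PMA lowered 4 of the 8 genes and raised 1, beside 31.1% of all tested genes that fell, 30.8% that rose and 61.9% that did either. The PMA libraries lay below all control libraries in CPM for those 4 genes, beside 33.7% of all tested genes, and above them for that 1, beside 33.8%. SLC4A1, the exchanger, fell the most among the 8, to 0.180 of control, and KEL, ANK1 and CA1 fell to between 0.381 and 0.434. RHAG rose 1.86-fold. GYPB, SPTB and EPOR did not pass. The median was -0.60 over the 8 genes, against 0.00476 over all tested genes. Without control replicate 2 a second gene passed as higher, which was EPOR.

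**Figure D2:**
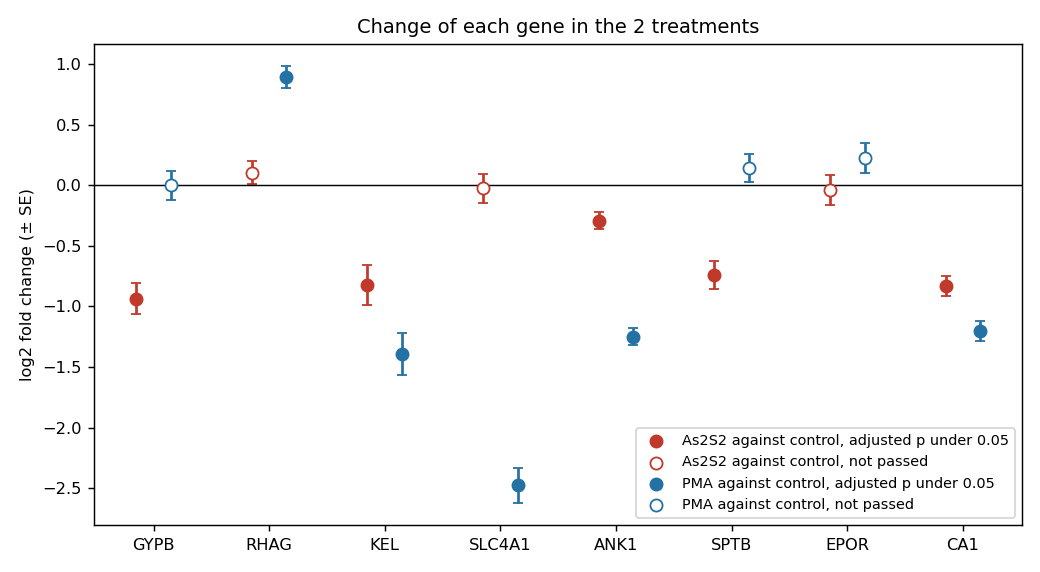
Log2 fold change of each gene for As2S2 against control (left of each pair) and PMA against control; points are edgeR estimates, bars are SEs of the fit, and filled points have an adjusted p under 0.05. SLC4A1 lies near 0 for As2S2 against control and at -2.48 for PMA against control, and GYPB and SPTB lie well below 0 for As2S2 only.

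Among the surface glycoproteins, glycophorin B (GYPB, a sialic acid-rich protein that carries the S and s antigens) had 24.8, 22.1 and 32.3 TPM in As2S2 libraries, 44.1, 43.0 and 35.9 TPM in PMA libraries and 50.9, 51.1 and 57.3 TPM in control libraries. All As2S2 values were lowest and all control values highest, with no overlap between groups on this scale. On the scale of the test, CPM (counts relative to the library total, with totals scaled by TMM), GYPB had 7.51, 6.90 and 8.79 CPM in As2S2 libraries, 15.7, 15.9 and 12.8 CPM in PMA libraries and 14.3, 15.6 and 14.5 CPM in control libraries. Here PMA and control libraries overlapped and only As2S2 stood apart. GYPB fell by 0.94 ± 0.13 on the log2 scale with As2S2 (edgeR adjusted p = 2.90e-05). With PMA its log2 fold change was -0.00013 ± 0.12 (adjusted p = 0.9995), and scaling by total counts gave -0.26 (adjusted p = 0.0650).

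GYPB shares sequence with other genes. Of its 2198 words of 50 bases in GENCODE 29 transcripts, 12.7% also occur in another gene, 1.05% in GYPE. Its counts were whole in 2 of 9 libraries, so its counts hold fractions of reads, and its values are uncertain. Its effective length, from the deposited counts and TPM, was 0.0939 to 0.109 of that of the median tested gene. GYPE, a related gene, fell by 0.57 ± 0.11 with As2S2 (edgeR adjusted p = 0.000847) and by 0.61 ± 0.11 with PMA (adjusted p = 0.000202). GYPB and GYPE were thus both lower with As2S2, and with PMA only GYPE passed the test.

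RHAG (the Rh-associated glycoprotein, which carries Rh proteins to the surface and forms a gas and ammonium channel) had 114, 82.5 and 86.0 TPM in As2S2 libraries, 121, 131 and 130 TPM in PMA libraries and 96.9, 89.2 and 101 TPM in control libraries. The 3 PMA libraries were above every other library, and As2S2 and control libraries overlapped, with As2S2 replicate 1 above the other As2S2 libraries. RHAG was the only one of the 8 that rose in any comparison with control: by 0.89 ± 0.09 with PMA (edgeR adjusted p = 4.29e-07), and by 0.63 with scaling by total counts (adjusted p = 2.66e-05). The log2 ratio of its mean TPM with PMA was smaller, at 0.41. For each of the 8 genes the log2 ratio of mean TPM with PMA lay below the value of the fit, such as -2.94 against -2.48 for SLC4A1. Its summed counts were 12004 in As2S2 libraries, 18594 in PMA libraries and 12208 in control libraries. With As2S2 the log2 fold change was 0.10 ± 0.09 (adjusted p = 0.400), and without As2S2 replicate 1 it was -0.04 (adjusted p = 0.617). RHAG shares 1.82% of its 50-base words with CAPZA2, whose log2 fold change with PMA was 1.25 ± 0.11 (adjusted p = 3.74e-08).

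KEL (the Kell glycoprotein, a zinc endopeptidase tethered to the XK protein) had 1.23, 1.56 and 1.39 TPM in As2S2 libraries, 0.76, 0.5 and 0.87 TPM in PMA libraries and 2.44, 2.32 and 2.78 TPM in control libraries. The 3 groups did not overlap, with control highest and PMA lowest. Counts were small, at 227 summed over As2S2 libraries, 137 over PMA libraries and 439 over control libraries. KEL fell by 0.82 ± 0.16 with As2S2 (edgeR adjusted p = 0.000895) and by 1.39 ± 0.18 with PMA (adjusted p = 3.85e-06). Its partner XK fell by 0.65 ± 0.10 with PMA (adjusted p = 2.96e-05) and had a log2 fold change of -0.11 ± 0.10 with As2S2 (adjusted p = 0.408); it was named after its values were seen.

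In the anchor complex, SLC4A1 (band 3, which exchanges chloride for bicarbonate) had 2.62, 2.92 and 2.54 TPM in As2S2 libraries, 0.32, 0.5 and 0.36 TPM in PMA libraries and 3.13, 2.86 and 3.07 TPM in control libraries. PMA libraries stood far below all others, and As2S2 and control libraries overlapped. The counts behind this were 38, 56 and 43 in PMA libraries, against 322, 283 and 326 in control libraries. SLC4A1 fell by 2.48 ± 0.15 with PMA (edgeR adjusted p = 4.10e-10), and its log2 fold change with As2S2 was -0.03 ± 0.12 (adjusted p = 0.886).

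ANK1 (ankyrin, the adaptor between band 3 and spectrin) had 21.9, 21.4 and 20.3 TPM in As2S2 libraries, 9.26, 8.77 and 8.7 TPM in PMA libraries and 29.3, 27.0 and 29.4 TPM in control libraries. The groups did not overlap, and the spread within each was narrow. ANK1 counts were whole in 7 of 9 libraries, and 6.40% of its 50-base words also occur in AC113133.1. The part of shared reads in the values of ANK1 was not tested. ANK1 fell by 0.29 ± 0.07 with As2S2 (edgeR adjusted p = 0.00305) and by 1.25 ± 0.07 with PMA (adjusted p = 2.74e-10). SLC4A1 TPM divided by ANK1 TPM was 0.127 ± 0.00866 in As2S2 libraries, 0.0443 ± 0.0115 in PMA libraries and 0.106 ± 0.00118 in control libraries, and was thus lowest with PMA.

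SPTB (beta spectrin, the erythroid chain that ankyrin grips) had 0.82, 1.31 and 0.93 TPM in As2S2 libraries, 2.3, 1.43 and 1.44 TPM in PMA libraries and 1.82, 2.0 and 2.36 TPM in control libraries. As2S2 libraries were lowest without overlap, and PMA and control libraries overlapped. SPTB fell by 0.74 ± 0.12 with As2S2 (edgeR adjusted p = 0.000122), and its log2 fold change with PMA was 0.14 ± 0.11 (adjusted p = 0.287), or -0.12 with scaling by total counts (adjusted p = 0.377). None of its 9 counts was whole, and 22.1% of its 50-base words also occur in transcripts of PLEKHG3, so its counts are uncertain. PLEKHG3 itself had a log2 fold change of 0.11 ± 0.12 with As2S2 (adjusted p = 0.500) and fell by 0.82 ± 0.12 with PMA (adjusted p = 2.52e-05); the part of shared reads in the values of SPTB was not tested. The relative effective length of SPTB varied from 1.77 to 3.21 between libraries, and this spread enters its TPM.

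EPOR, the receptor through which erythropoietin acts, had 3.15, 3.51 and 3.18 TPM in As2S2 libraries, 2.79, 2.79 and 3.56 TPM in PMA libraries and 3.35, 3.83 and 3.46 TPM in control libraries. All 3 groups overlapped in TPM. In CPM, EPOR had 8.82, 9.11 and 8.99 in As2S2 libraries, 10.4, 10.3 and 11.6 in PMA libraries and 8.59, 10.6 and 8.54 in control libraries. As2S2 libraries lay below PMA libraries on this scale, and control replicate 2, one of the outlying libraries, was the high control. Its log2 fold change was -0.04 ± 0.12 with As2S2 (edgeR adjusted p = 0.831) and 0.23 ± 0.12 with PMA (adjusted p = 0.121). Without control replicate 2 the PMA value was 0.33 and passed (adjusted p = 0.0272), whereas scaling by total counts gave -0.03 (adjusted p = 0.844). EPOR, like KEL, shared none of its 50-base words with another gene, and its counts were whole in all 9 libraries.

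CA1 (carbonic anhydrase I, an abundant enzyme of adult red cells that hydrates carbon dioxide) had 43.9, 33.9 and 36.3 TPM in As2S2 libraries, 21.5, 23.1 and 21.7 TPM in PMA libraries and 71.2, 70.6 and 75.8 TPM in control libraries. The groups did not overlap, with control highest and PMA lowest. CA1 fell by 0.83 ± 0.08 with As2S2 (edgeR adjusted p = 1.18e-06) and by 1.20 ± 0.08 with PMA (adjusted p = 3.58e-09). CA1, KEL and ANK1 were the genes of the 8 that fell with both agents. The changes with As2S2 and with PMA were measured against the same control libraries.

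As2S2 set directly against PMA tests whether the agents differ, without the control libraries in the contrast. Of the 8 genes, 4 were higher with As2S2 and 3 lower, beside 30.9% of all tested genes that were higher, 30.6% that were lower and 61.4% that were either. In CPM, As2S2 libraries lay above all PMA libraries for the same 4 genes and below them for the same 3 and for EPOR, beside 33.6% of all tested genes in each direction. SLC4A1 was 5.47-fold higher with As2S2 (log2 2.45 ± 0.15, edgeR adjusted p = 5.71e-10) and ANK1 was 1.94-fold higher (0.96 ± 0.07, adjusted p = 8.22e-09). KEL (0.57 ± 0.19, adjusted p = 0.0147) and CA1 (0.37 ± 0.08, adjusted p = 0.00116) were higher by smaller amounts, and KEL no longer passed without PMA replicate 2 (0.40, adjusted p = 0.0814). GYPB (-0.94 ± 0.13, adjusted p = 1.04e-05), SPTB (-0.88 ± 0.12, adjusted p = 7.71e-06) and RHAG (-0.79 ± 0.09, adjusted p = 1.84e-06) were lower with As2S2. For EPOR the log2 fold change was -0.27 ± 0.12 (adjusted p = 0.0738), and it passed with upper-quartile scaling (adjusted p = 0.0320) or without control replicate 2 (adjusted p = 0.0498). The agents thus differed in opposite directions within the anchor complex: its exchanger and ankyrin were lower with PMA, and its spectrin chain was lower with As2S2. The last part rests on SPTB alone, whose counts are uncertain. PLEKHG3, which shares sequence with SPTB, was higher with As2S2 than with PMA (0.93 ± 0.12, edgeR adjusted p = 7.35e-06), and its part in the SPTB values was not tested.

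The authors' deposited table gave the same side of 0.05 for each of the 8 genes in both comparisons with control. With As2S2 the authors' deposited table listed log2 fold changes of -0.95 for GYPB (adjusted p = 4.16e-07), -0.84 for CA1 (7.70e-17), -0.83 for KEL (0.00125), -0.75 for SPTB (9.46e-05) and -0.30 for ANK1 (0.00261). With PMA the authors' deposited table listed -2.51 for SLC4A1 (adjusted p = 4.75e-32), -1.42 for KEL (1.41e-07), -1.28 for ANK1 (1.27e-61), -1.23 for CA1 (2.90e-47) and 0.86 for RHAG (2.73e-43).

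Of the EPOR signalling pathway, 24 genes were examined, of which 23 were tested. The ligand gene EPO had 2 counts over all 9 libraries, below the limit that 3 counts set (0.0173 CPM). With As2S2, 5 of the 23 rose and 5 fell, beside 20.3% and 19.6% of all tested genes, and the median log2 fold change was -0.04. SOCS3, an inhibitor of the receptor's kinase, rose by 1.41 ± 0.09 (edgeR adjusted p = 5.92e-09), and the adaptor SHC1 rose by 0.70 ± 0.08 (adjusted p = 6.80e-06). TFR2, a partner of EPOR at the surface, fell by 1.06 ± 0.11 (adjusted p = 1.60e-06), and the signal transducer STAT5B fell by 0.46 ± 0.06 (adjusted p = 2.93e-05). Without As2S2 replicate 1 the number that rose was 8.

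With PMA, 14 of the 23 fell and 2 rose, beside 31.1% and 30.8% of all tested genes, and the median was -0.60, against 0.00476 over all tested genes. ERFE, the erythroid hormone that lowers hepcidin and is a target of this pathway, averaged 14.7 ± 0.596 TPM in As2S2 libraries, 1.65 ± 0.215 TPM in PMA libraries and 23.5 ± 0.353 TPM in control libraries. It fell by 3.28 ± 0.13 with PMA (edgeR adjusted p = 4.12e-12). The survival kinase PIM1 fell by 1.79 ± 0.07 (adjusted p = 3.89e-12), the adaptor GAB2 by 1.82 ± 0.08 (adjusted p = 7.22e-12) and the feedback inhibitor SOCS2 by 1.43 ± 0.07 (adjusted p = 7.09e-11). SOCS3 and SHC1 were the ones that rose. Set directly against PMA, As2S2 libraries had 15 of the 23 higher and 1 lower, beside 30.9% and 30.6% of all tested genes, with a median of 0.71.

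Within this pathway a pair of feedback inhibitors that STAT5 induces, CISH and SOCS1, moved in opposite directions with the agents; they were named after their values were seen. CISH averaged 49.3 ± 4.48 TPM in As2S2 libraries, 11.2 ± 0.732 TPM in PMA libraries and 33.4 ± 4.91 TPM in control libraries. It rose by 0.73 ± 0.11 with As2S2 (edgeR adjusted p = 7.62e-05) and fell by 1.10 ± 0.12 with PMA (adjusted p = 4.27e-07). SOCS1 rose by 0.79 ± 0.16 with As2S2 (adjusted p = 0.00101) and fell by 0.90 ± 0.18 with PMA (adjusted p = 0.000327). The As2S2 libraries were above the PMA libraries for CISH by 1.83 ± 0.12 and for SOCS1 by 1.69 ± 0.17 on the log2 scale (adjusted p = 1.18e-09 and 3.80e-07).

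**Figure D3:**
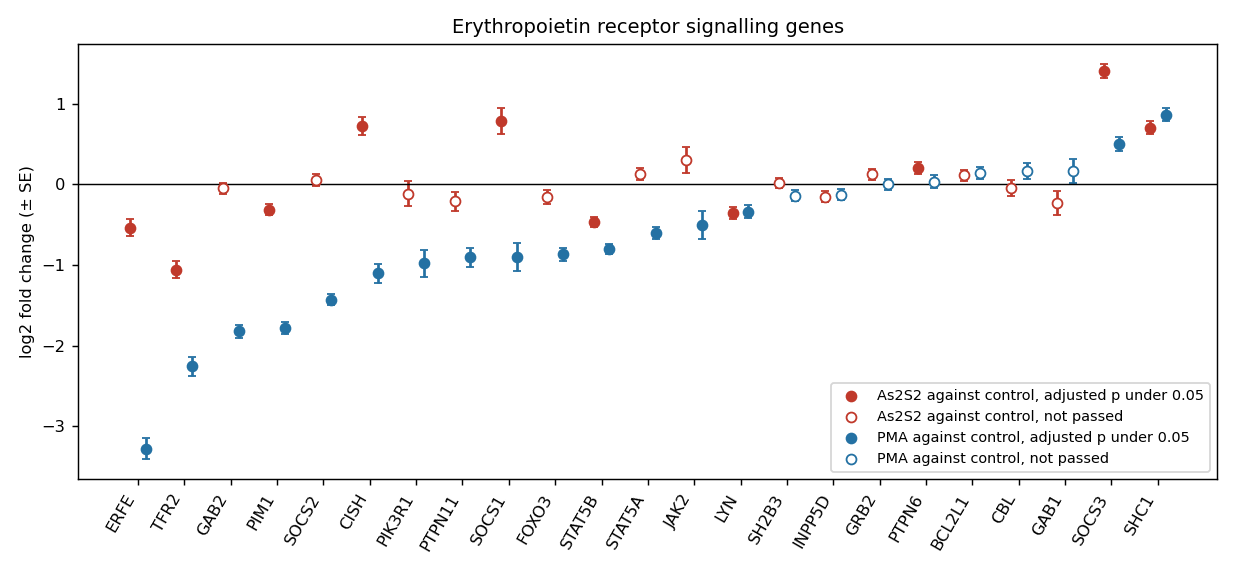
Log2 fold change of the tested genes of EPOR signalling for As2S2 against control and PMA against control, with SEs of the edgeR fit as bars and filled points for an adjusted p under 0.05. With PMA 14 of 23 genes lie below 0 and pass, and SOCS3 is highest with As2S2 at 1.41.

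The other red cell membrane and skeleton genes, 22 in all, were each tested. With As2S2, 3 rose and 6 fell (median -0.12), beside 20.3% and 19.6% of all tested genes. With PMA, 7 rose and 10 fell (median -0.33), beside 30.8% and 31.1%. The background shares are the same for the lists that follow. The As2S2 count of rises is fragile: it was 1 without As2S2 replicate 3, 1 without control replicate 1, and 6 when As2S2 replicate 1 and control replicate 2 were both dropped. DMTN, an actin-bundling protein of the skeleton, rose by 0.88 ± 0.09 with As2S2 (edgeR adjusted p = 9.44e-07). EPB42, which binds band 3, fell with both agents, by 1.05 ± 0.22 with As2S2 (edgeR adjusted p = 0.00120) and by 2.85 ± 0.27 with PMA (adjusted p = 1.53e-07). As2S2 libraries were above PMA libraries for EPB42 by 1.80 ± 0.30 (adjusted p = 6.36e-05). Its summed counts were small, at 102 in As2S2 libraries, 26.3 in PMA libraries and 230 in control libraries. They were whole in 4 of 9 libraries, and 12.5% of its 50-base words also occur in AC068724.4, so its values are uncertain. PMA raised CD47, a signal against phagocytosis, by 1.48 ± 0.08 (adjusted p = 2.00e-10), MPP1 by 0.96 ± 0.07 (adjusted p = 2.51e-09) and STOM by 0.83 ± 0.06 (adjusted p = 8.81e-09), and it lowered the stretch-gated channel PIEZO1 by 1.54 ± 0.09 (adjusted p = 6.47e-10).

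Of 29 other blood group genes 24 were tested, and B3GALNT1 had 0 counts in all libraries, where the limit set by 3 counts is 0.0173 CPM. With As2S2, 9 rose and 6 fell (median -0.02), and with PMA 12 rose and 7 fell (median 0.23). ERMAP, which carries the Scianna antigens, fell with both agents, by 0.87 ± 0.10 with As2S2 (edgeR adjusted p = 6.60e-06) and by 1.47 ± 0.11 with PMA (adjusted p = 6.63e-09). The ABO glycosyltransferase fell by 1.16 ± 0.13 with As2S2 (adjusted p = 4.48e-06), and ICAM4, an erythroid adhesion molecule, fell by 0.99 ± 0.15 (adjusted p = 5.67e-05). CD59, an inhibitor of complement that many cell types carry, rose with both, by 1.05 ± 0.07 with As2S2 (adjusted p = 2.21e-08) and by 4.08 ± 0.08 with PMA (adjusted p = 4.25e-16). PMA also raised the complement regulator CD55 by 1.25 ± 0.07 (adjusted p = 2.15e-10) and the hyaluronan receptor CD44 by 1.08 ± 0.06 (adjusted p = 4.90e-10).

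The erythrocyte proteins have relatives outside the red cell, and 9 of 18 such paralogues were tested, RHBG and ECE2 being at 0 counts throughout. With As2S2, 1 rose and 3 fell (median -0.17), and with PMA 2 rose and 5 fell (median -0.37). SPTAN1, the alpha chain of non-erythroid spectrin, rose by 0.61 ± 0.09 with As2S2 (edgeR adjusted p = 4.25e-05). SLC4A2, the widely expressed anion exchanger, fell by 0.95 ± 0.11 with PMA (adjusted p = 1.34e-06), a smaller change than that of SLC4A1, though the difference between the genes was not tested. Of 14 other carbonic anhydrases 6 were tested, with CA5A and CA6 at 0 counts, and CA2 moved against CA1 with PMA. CA2 averaged 26.8 ± 0.874 TPM in As2S2 libraries, 66.2 ± 1.56 TPM in PMA libraries and 37.5 ± 0.306 TPM in control libraries. It fell by 0.36 ± 0.07 with As2S2 (adjusted p = 0.000981) and rose by 1.29 ± 0.07 with PMA (adjusted p = 2.27e-10). In this set 1 gene rose and 1 fell with As2S2 (median 0.04), and 3 rose and 1 fell with PMA (median 0.77); the fall was that of CA8 (adjusted p = 0.0226), which no longer passed without control replicate 3, PMA replicate 2 or PMA replicate 3.

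Beside EPOR, 9 of 12 other cytokine receptors were tested, and PRLR and FLT3 had 0 counts. With As2S2, 3 rose and 2 fell (median 0.32), and with PMA 2 rose and 3 fell (median 0.13). KIT, the receptor for stem cell factor, fell by 1.76 ± 0.13 with As2S2 (edgeR adjusted p = 3.39e-08), whereas with PMA its value was -0.25 ± 0.11 (adjusted p = 0.0700). CSF2RB, the chain shared by receptors of interleukin 3 and related factors, fell by 0.78 ± 0.07 with PMA (adjusted p = 1.62e-07). Its fall of 0.20 ± 0.07 with As2S2 (adjusted p = 0.0409) is marginal, and with any library but control replicate 1 or As2S2 replicate 3 left out the As2S2 count of falls was 1.

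**Figure D4:**
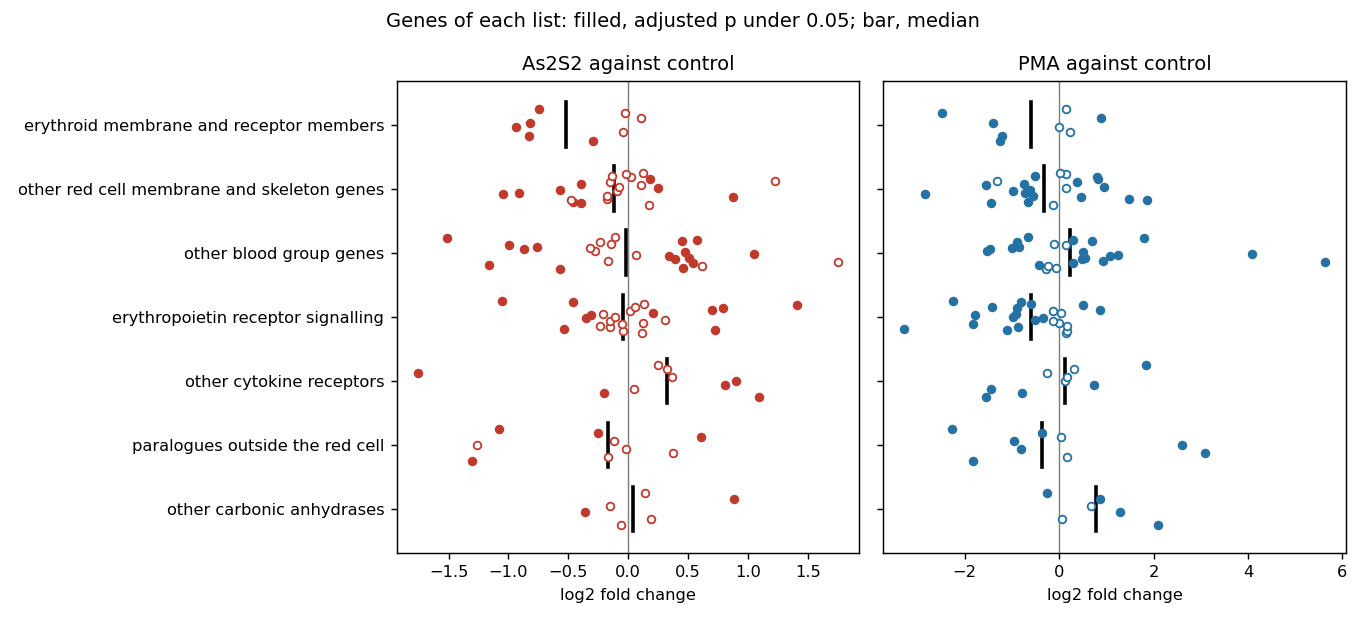
Log2 fold change of every tested gene in the lists, with As2S2 against control left and PMA against control right, on horizontal axes of different range; each point is a gene, filled where its adjusted p is under 0.05, and the line marks the median of the list. The median of EPOR signalling is -0.60 with PMA and -0.04 with As2S2, and that of the 8 genes is below 0 with both.

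The patterns of the 8 genes over the libraries were compared with those of 9686 genes of at least 5 CPM by Pearson's r of log2 CPM. All values come from the same 9 libraries, which form 3 groups, so r mostly reflects the 3 group means and is given as a description. SLC4A1 was most like LINC02693 (r = 0.997) and GPT2 (0.996), and ANK1 was most like NEO1 (0.997) and GMDS (0.997). RHAG was most like TPMT (0.997) and ATP5PB (0.996), CA1 like LDLRAD3 (0.995) and SFXN4 (0.988), and SPTB like CMC1 (0.992) and FAM171A1 (0.990). The closest genes to KEL were HOXA10-AS (0.985) and SOBP (0.980), to GYPB were IMMP2L (0.982) and SDHAF3 (0.977), and to EPOR were TRAPPC5 (0.974) and MMP24OS (0.970). None of the 8 genes had another of the 8 among its closest pair, which says little of their likeness when 9686 genes compete. KEL lay below the limit of 5 CPM and could not be named. Between members, r ran from -0.954 for ANK1 and RHAG to 0.971 for SLC4A1 and ANK1.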

How the data were processed

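RNA was sequenced from 9 MEG-01 libraries, 3 per group, made with the NEBNext Ultra II kit after poly(A) selection, per the labels. Per the submitters' processing notes, fastp 0.22.0 and DESeq2 were used; the builds named there are zebrafish builds, and the organism label of 1 control sample is not human, but the tables carry human Ensembl IDs. Not given in the sources used here are the aligner, counter, strand setting and annotation. The authors deposited expected counts (not normalized) and TPM per gene and library, and for each treatment a log2 fold change with an adjusted p-value, per the file headers. Another deposited table, which repeats these values, was not used.

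The control columns of both tables differed in 0 values. Of 63241 genes, 33498 had 0 counts in every library, and 62666 had a symbol. Expected counts were rounded to whole numbers and filtered with filterByExpr, which left 14592 genes. Groups were compared in 1 fit of all 9 libraries with edgeR 4.0.16 (quasi-likelihood F-test, TMM, R 4.3.3), with Benjamini-Hochberg adjustment over all tested genes; calls had an adjusted p under 0.05. The common dispersion had a square root of 0.0909. The fit was tested on simulated data. Effective lengths came from the ratio of deposited counts to TPM. A count was called whole within 0.001. For symbols with several IDs (CD99, CSF2RA, IL3RA) the ID with the most counts was used.

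Alternatives were DESeq2 1.42.0, limma-voom (limma 3.58.1), RLE or upper-quartile scaling, dropping the filter or raising it (to 10 counts and a mean of 1 CPM), fitting only the 2 groups compared, blocking on the replicate number, calling at 0.01, requiring a log2 fold change of 1, and omitting each library in turn. After seeing the data, scaling by total counts was added, as was the joint omission of As2S2 replicate 1 and control replicate 2. The 8 genes and all lists were chosen with earlier results of these data known. All 8 were named, and from each other list up to 4 genes per treatment with the smallest adjusted p against control, with genes at 0 counts; some genes that this rule took are left out of the text. For likeness, log2 CPM had a prior count of 2, and the 2 closest genes were named. Symbols and sequences came from RefSeq and GENCODE 29.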

Additional observations from a re-analysis of the deposited data

How the results depend on the processing

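The 5 genes that fell with As2S2 and the 4 that fell with PMA kept their direction and an adjusted p under 0.05 under each scaling, filter, tool and omission of a library; RHAG did so with PMA. With log2 fold changes of at least 1 required, no member counted as lower with As2S2 and none as higher with PMA (0 each), and 1 was higher and 0 lower for As2S2 against PMA; genes counted over the table were then 618 higher and 509 lower with As2S2, 1721 and 1339 with PMA, and 1392 and 1624 for As2S2 against PMA, against 2962 and 2859, 4494 and 4540, and 4503 and 4463. A threshold of 0.01 left 1876 genes lower with As2S2. The number of members higher with PMA was 1 to 2 over the omissions of single libraries and 2 without both As2S2 replicate 1 and control replicate 2, where EPOR had 0.33 (adjusted p = 0.0154). Scaling by total counts moved the median of all tested genes by -0.08 with As2S2, -0.26 with PMA and 0.18 for As2S2 against PMA; 2955 genes were then higher and 6476 lower with PMA, and the higher share of calls was 39.3%, 31.3% and 62.9%, against 50.9%, 49.7% and 50.2%. It turned PMA values close to 0 that had not passed, among them EPOR to -0.030, SPTB to -0.12 and ICAM4 to -0.10. Other values close to 0 changed sign. GYPB with PMA was 0.000959 with RLE, 0.026 with upper-quartile scaling, 0.016 with the stricter filter and 0.029 without both libraries, and -0.058 to 0.099 with 1 library omitted. With As2S2, such omissions gave -0.091 to 0.069 for EPOR (0.081 without both), -0.083 to 0.010 for SLC4A1 (0.00630 without both) and -0.041 to 0.19 for RHAG (-0.047 without both). The cause was not tested. Same-numbered libraries of different groups deviated together only weakly (r from -0.0730 to 0.149), so numbers were not taken to pair samples; with the replicate block the counts were 3005 higher and 2967 lower with As2S2, 4569 and 4611 with PMA, and 4543 and 4501 for As2S2 against PMA, and no count of members changed. KEL in PMA libraries rests on 137 counts in all, as does SLC4A1, which limits the precision of their changes.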

Other observations

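Of 13 genes of haemoglobin and late red cell formation 11 were tested, and HBZ had 0 counts. With As2S2, 6 rose and 1 fell, or 2 without As2S2 replicate 2 (median log2 fold change 0.21), and with PMA 6 rose and 3 fell (median 0.55). HBG2, the fetal gamma globin, rose by 0.51 ± 0.07 with As2S2 (edgeR adjusted p = 3.27e-05) and by 2.66 ± 0.07 with PMA (adjusted p = 4.72e-14). The embryonic globin HBE1 averaged 104 ± 5.67 TPM in As2S2 libraries, 816 ± 38.1 TPM in PMA libraries and 98.1 ± 4.34 TPM in control libraries, and rose by 3.53 ± 0.08 with PMA (adjusted p = 5.91e-15). ALAS2, the erythroid enzyme that starts haem synthesis, fell with both agents, by 0.69 ± 0.12 with As2S2 (adjusted p = 0.000349) and by 0.78 ± 0.12 with PMA (adjusted p = 4.50e-05). SLC25A37, the mitochondrial iron importer, rose with both, by 0.40 ± 0.07 with As2S2 (adjusted p = 0.000372) and by 0.75 ± 0.07 with PMA (adjusted p = 1.65e-07). HBG1 and HBG2 are near-identical copies, so their split is uncertain.

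Of 15 transcription factors of the erythroid and megakaryocyte lineages, 3 rose and 7 fell with As2S2 (median -0.19), and 4 rose and 8 fell with PMA (median -0.40). LMO2, a bridging factor of erythroid complexes, fell by 1.07 ± 0.08 with As2S2 (edgeR adjusted p = 3.18e-08) and rose by 1.005 ± 0.07 with PMA (adjusted p = 5.76e-09). MYB, a factor of progenitors, fell with both, by 1.08 ± 0.08 with As2S2 (adjusted p = 6.02e-08) and by 0.96 ± 0.08 with PMA (adjusted p = 4.05e-08). TAL1 rose with both, by 0.60 ± 0.06 with As2S2 (adjusted p = 1.81e-06) and by 0.31 ± 0.06 with PMA (adjusted p = 0.000455).

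Of the megakaryocyte markers 13 of 16 were tested; 5 rose and 2 fell with As2S2 (median 0.25), and 11 rose and 1 fell with PMA (median 2.02). Their summed TPM was 196 to 228 in As2S2 libraries, 248 to 265 in PMA libraries and 248 to 260 in control libraries. Much of these sums was ITGA2B, at 138 ± 13.8 TPM in As2S2, 68.3 ± 4.77 TPM in PMA and 190 ± 7.08 TPM in control libraries. The similar sums of PMA and control libraries thus hide the rise of most markers. Of 11 monocyte and macrophage markers 7 were tested, with CD163 at 0 counts; 2 rose and 2 fell with As2S2 (median 0.08) and 3 rose and 2 fell with PMA (median 0.13). The count of those that rose with As2S2 was 1 without control replicate 1 and 0 without control replicate 3 or As2S2 replicate 3. Their summed TPM was 182 to 201 in As2S2 libraries, 303 to 328 in PMA libraries and 182 to 192 in control libraries. The part of these markers in the changes of the 8 genes was not tested.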
